A study of Mus musculus with 15 samples.

Results

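The inflammatory chemokines described here are 10 genes, Ccl2, Ccl7, Ccl3, Ccl4, Ccl5, Ccl6, Ccl9, Cxcl1, Cxcl2 and Cxcl10, taken by symbol from the 56832 genes of the count table, and all 10 passed the filter on low counts. They were measured by bulk RNA-sequencing in 15 libraries of bone marrow mesenchymal stromal cells (MSCs) from 16 week old mice of C57BL/6J background. TauT-/- mice lack the taurine transporter, the product of Slc6a6, in every tissue, and TauT+/+ mice were the controls. There were 4 male-labelled and 3 female-labelled TauT+/+ (WT) libraries, and 4 male-labelled and 4 female-labelled TauT-/- (KO) libraries, all untreated. Bone marrow cells of both genotypes were grown on collagen at 2% oxygen to confluency, and MSCs were then enriched by removing cells with the blood cell markers CD45 and Ter119 and the endothelial marker CD31. The labels do not say whether libraries came from separate mice, so p-values measure the spread between these libraries, which may be technical.

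Chemokines are small secreted proteins that guide white blood cells along a gradient toward the source. CC chemokines such as CCL2 draw mainly monocytes and lymphocytes, and CXC chemokines such as CXCL1 draw mainly neutrophils or, for CXCL10, activated T cells. Many of these genes are switched on by NF-κB after stimulation by tumor necrosis factor, interleukin-1 or bacterial products. In the bone marrow, stromal cells and macrophages both make CCL2, and macrophages are a main source of CCL3, CCL4, CCL6 and CCL9 in the mouse.

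The 7 Ccl genes lie on chromosome 11 and the 3 Cxcl genes on chromosome 5 of the mouse genome (GRCm39, annotation GENCODE M39). All are protein-coding, with 3 or 4 exons. Ccl2 (chr11:81926397-81928279) and Ccl7 (chr11:81936532-81938351) are neighbors, 8252 bases apart. Cxcl1 (chr5:91039094-91040974) and Cxcl2 (chr5:91051730-91053797) are 10755 bases apart, Ccl3 (chr11:83538670-83540191) and Ccl4 (chr11:83553383-83555509) 13191 bases, and Ccl9 (chr11:83463745-83473161) and Ccl6 (chr11:83478708-83483913) 5546 bases. Ccl5 (chr11:83416602-83425942) lies on the same stretch of chromosome 11, and Cxcl10 (chr5:92494497-92496748) stands apart from the other Cxcl genes.

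The 250 bases before the start of the canonical transcript of each gene were searched for 4 short motifs. The motifs were chosen because these genes are known targets of the factors that bind them. For Ccl5 and Ccl9 this start lies inside the span of the gene given above. A κB motif was GGG, any 3 bases and TTCC, an interferon-stimulated response element was GAAA, any 2 bases and GAAA, and an AP-1 motif was TGANTCA, all on both strands, and a TATA box was TATAAA on the sense strand. The κB motif was present in 6 of the 10 promoters (Ccl2, Ccl5, Ccl9, Cxcl1, Cxcl2 and Cxcl10) and in 4.7% of the 21770 promoters of the same length in the annotation. The interferon-stimulated response element was present in Cxcl10 alone among the 10, against 3.32% of all promoters. The AP-1 motif was present in Ccl7, Ccl9 and Cxcl10, against 6.17%, and the TATA box in Ccl7, Ccl5 and Ccl9, against 8.03%. The TATA box began 24, 31 and 87 bases before the start in Ccl7, Ccl5 and Ccl9. Only the exact letters were counted, so CATAAA in Cxcl1 and Cxcl2 was not. The promoters of both CCR2 ligands, Ccl5, both CXCR2 ligands and Cxcl10 are printed 5′ to 3′ on the strand of the gene, so that the last base is the one before the start, with matches to any of the 4 motifs in capitals.
Ccl2, chr11:81926147-81926396, plus strand: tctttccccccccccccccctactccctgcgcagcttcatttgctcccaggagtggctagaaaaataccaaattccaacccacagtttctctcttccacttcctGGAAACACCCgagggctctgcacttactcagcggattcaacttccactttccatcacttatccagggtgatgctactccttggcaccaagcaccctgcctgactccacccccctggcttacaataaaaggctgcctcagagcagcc
Ccl7, chr11:81936282-81936531, plus strand: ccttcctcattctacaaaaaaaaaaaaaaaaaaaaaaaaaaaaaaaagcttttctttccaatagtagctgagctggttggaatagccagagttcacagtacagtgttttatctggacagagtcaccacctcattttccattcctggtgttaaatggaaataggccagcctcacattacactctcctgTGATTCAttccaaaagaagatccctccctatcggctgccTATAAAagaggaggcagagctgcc
Ccl5, chr11:83421346-83421595, minus strand: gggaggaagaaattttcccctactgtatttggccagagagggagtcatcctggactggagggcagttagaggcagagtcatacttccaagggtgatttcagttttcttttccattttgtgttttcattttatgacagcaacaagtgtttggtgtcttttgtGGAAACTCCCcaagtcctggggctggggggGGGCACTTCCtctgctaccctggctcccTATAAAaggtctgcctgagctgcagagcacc
Cxcl1, chr5:91038844-91039093, plus strand: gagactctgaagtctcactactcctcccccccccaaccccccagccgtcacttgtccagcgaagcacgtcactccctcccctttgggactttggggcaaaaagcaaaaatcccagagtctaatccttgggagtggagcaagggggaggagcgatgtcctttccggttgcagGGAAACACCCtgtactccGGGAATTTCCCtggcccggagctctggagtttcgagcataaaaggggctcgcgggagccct
Cxcl2, chr5:91051480-91051729, plus strand: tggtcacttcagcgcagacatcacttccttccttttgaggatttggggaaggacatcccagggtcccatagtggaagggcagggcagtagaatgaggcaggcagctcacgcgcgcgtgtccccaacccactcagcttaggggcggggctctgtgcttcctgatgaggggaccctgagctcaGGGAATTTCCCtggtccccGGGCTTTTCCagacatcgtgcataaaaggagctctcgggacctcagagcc
Cxcl10, chr5:92496749-92496998, minus strand: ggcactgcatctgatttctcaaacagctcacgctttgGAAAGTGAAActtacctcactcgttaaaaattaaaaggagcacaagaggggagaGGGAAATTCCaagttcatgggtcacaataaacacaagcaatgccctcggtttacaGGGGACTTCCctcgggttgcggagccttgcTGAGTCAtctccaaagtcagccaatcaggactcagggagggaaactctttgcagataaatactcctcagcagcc
In Ccl2 the κB match begins 146 bases before the start and lies on the opposite strand. In Cxcl1 and Cxcl2 the run GGGAATTTCCC holds 1 match on each strand that overlap, beginning 61 and 69 bases before the start on the sense strand, and each gene has a further κB match. Ccl7 has no κB match but an AP-1 match at 63 bases, which reads on both strands, and a TATA box at 24 bases. Cxcl10 has κB matches at 159 and 104 bases, the interferon-stimulated response element at 213 bases and an AP-1 match at 74 bases. A match is a description of the letters and was not tested for binding.

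Total counts were 69764291 to 101575071 in the 8 male-labelled and 12761107 to 20781070 in the 7 female-labelled libraries, so depth and sex label cannot be told apart. The libraries WT male 1 and WT female 1 differed by a spread of log2 ratios across genes of 0.115, and KO male 1 and KO female 1 by 0.104, while the next of the 105 pairs differed by 0.289. These spreads exceed that of counting alone (0.0583 and 0.0559), which does not show whether each pair came from separate samples. Both of each pair entered the main test, which called 94 genes higher in KO and 129 lower over all genes. With only the female-labelled library of each pair kept, 2 were called higher and 0 lower, and with only the male-labelled one 7 and 0. Xist and Ddx3y went against the sex label in WT male 1, KO male 1 and WT female 3. Slc6a6 itself was at 592 to 2591 CPM (counts scaled to the size of the library) with a median of 1712 in WT and at 401 to 1521 CPM with a median of 747 in KO, and the ranges overlapped (log2 difference -0.97, SE 0.36, edgeR adjusted p = 0.125). Which part of the gene the KO allele lacks was not given in the sources used here, so these counts check the labels only in part.

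The first question is how much of each chemokine the MSC cultures made. To compare genes, levels were divided by transcript length (CPM per kb). Ccl2 and Ccl7 led in both genotypes, with means of 264 ± 125 and 240 ± 112 CPM per kb in WT (SD, n = 7) and 335 ± 185 and 281 ± 110 CPM per kb in KO (SD, n = 8), and they did not differ beyond their spread. In WT, Cxcl1 came next with 85.8 ± 39.8 CPM per kb, and Cxcl2 (60.1 ± 51.5), Ccl6 (54.2 ± 27.4), Ccl9 (51.4 ± 13.6), Ccl3 (48.0 ± 33.5) and Ccl4 (38.3 ± 29.7) followed within their spread of each other. In KO, Ccl3 (95.1 ± 95.4), Ccl6, Ccl9 and Cxcl2 had means of 95.1 to 65.8 CPM per kb and did not differ beyond their spread. The mean of Ccl3 rested on KO female 4 at 327 CPM per kb, and by medians the order was Ccl9 (71.9), Ccl6 (67.6) and Ccl3 (64.7 CPM per kb). Cxcl1 was the seventh of the 10 by its KO mean of 46.3 ± 24.6 CPM per kb. Ccl5 (13.4 ± 9.76 in WT and 19.7 ± 21.6 in KO) and Cxcl10 (0.755 ± 0.837 and 1.75 ± 3.32) were the 2 lowest in both genotypes on the CPM per kb scale. Summed over the 10 genes, the level was 484 to 1306 CPM in WT and 941 to 1300 CPM in KO.

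The second question is whether the 10 genes differed between TauT+/+ and TauT-/- MSCs. None of the 10 passed the test in either direction (edgeR's quasi-likelihood test with sex label and genotype in the model, adjusted p under 0.05 over 17204 genes), where 0.546% of all genes tested were called higher in KO and 0.75% lower. At an unadjusted p under 0.05 the count was also 0 of 10, against 10.6% of all genes higher and 13% lower. DESeq2 called 0 of the 9 to which it gave an adjusted p, which left out Cxcl10, where it called 2.9% of all genes higher and 3.47% lower, and limma voom called 0 of 10. The log2 difference was positive in 8 of the 10, against 8316 of the 17204 genes tested. The median of the 10 was 0.35, where the median of all genes tested was -0.02. The signs of Ccl5, Cxcl2 and Cxcl10 changed in fits that left out 1 library. The WT and KO ranges overlapped for every one of the 10, and over all genes tested 1.13% did not overlap. In bulk RNA, fewer cells of a type and less RNA per cell cannot be told apart.

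**Figure D1:**
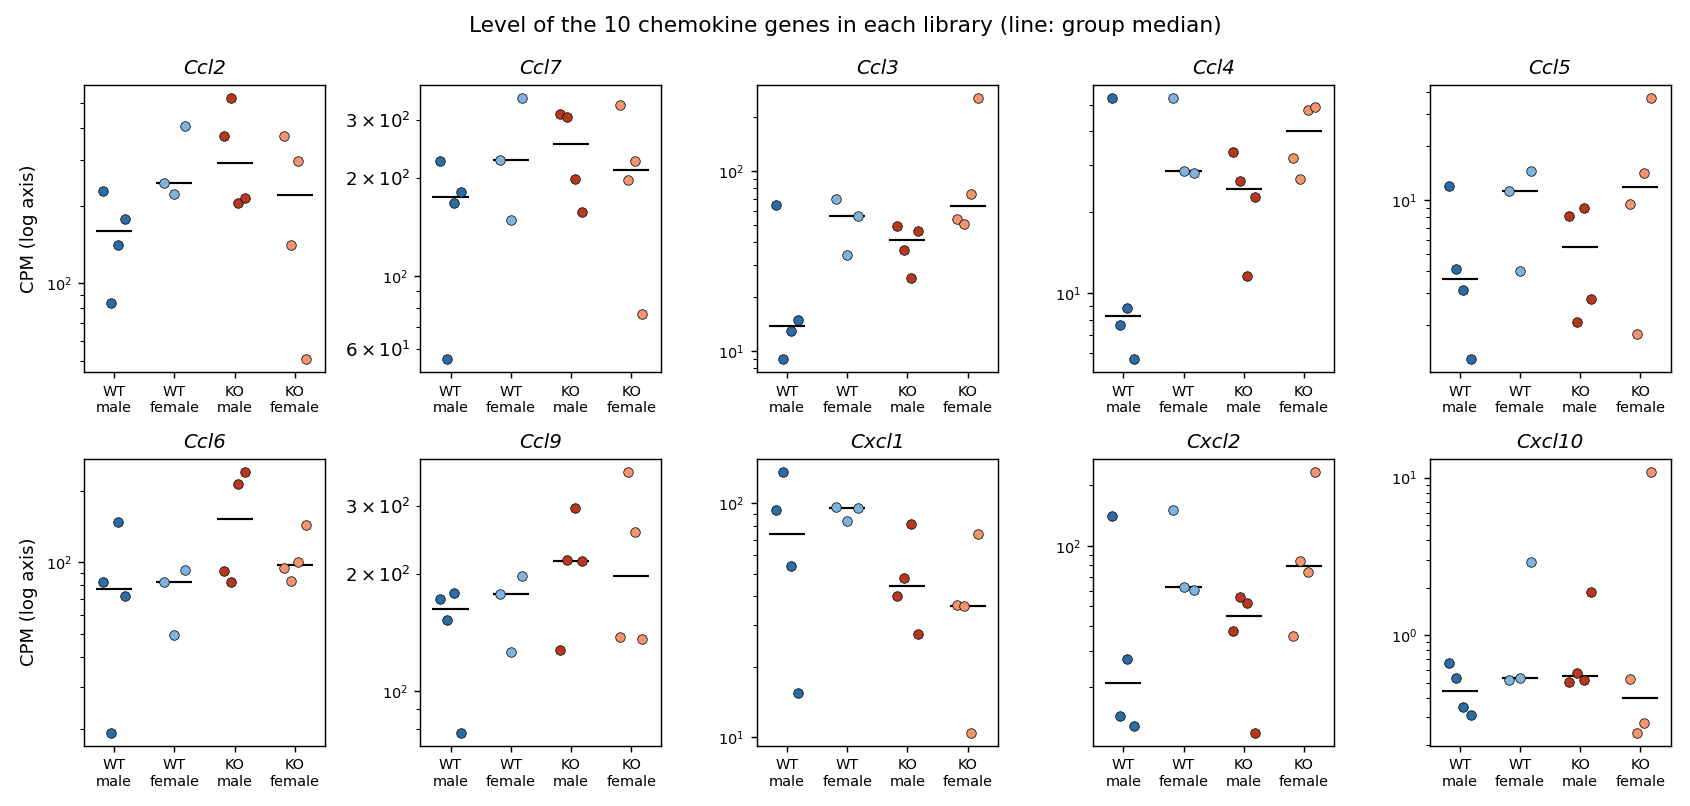
CPM of each gene on a log axis (each panel has its own range), with 1 point per library and a line at the median of each of the 4 groups. The genotypes overlap in every panel, and the library KO female 4 holds the highest point for Ccl3 (254), Ccl5 (37.1), Cxcl2 (233) and Cxcl10 (10.9) and the lowest for Ccl2 (50.9).

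**Figure D2:**
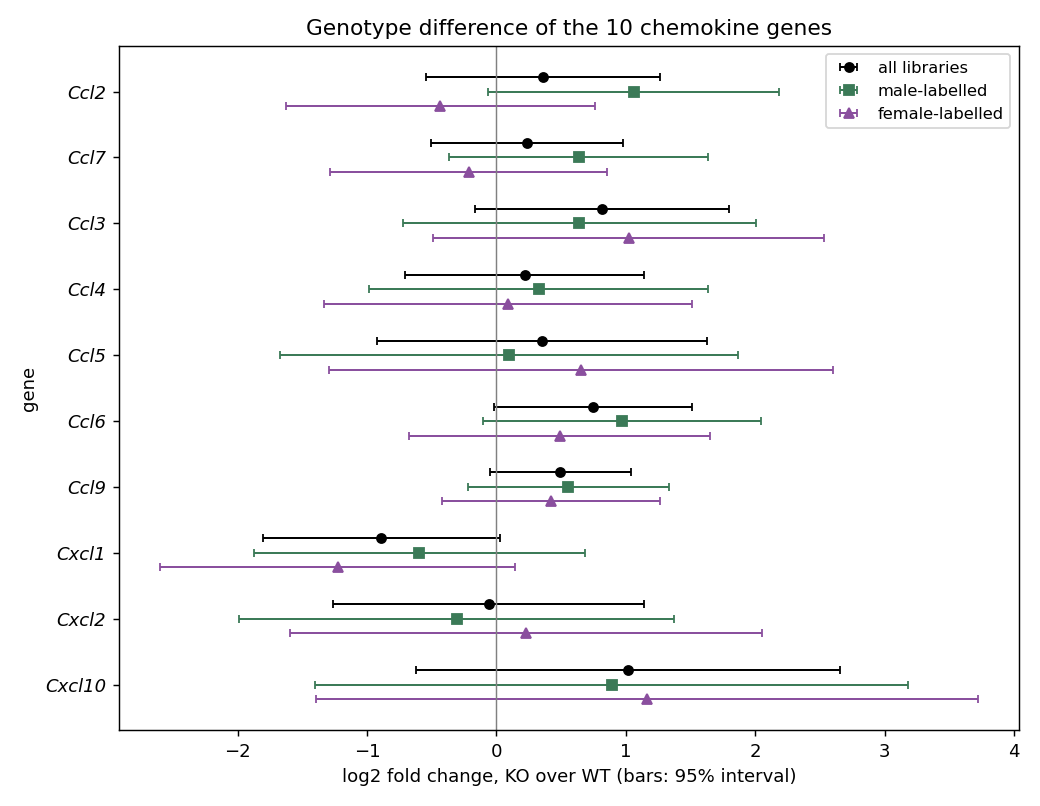
Log2 fold change of KO over WT with its 95% interval for each gene, over all libraries (circles) and within the male-labelled (squares) and female-labelled (triangles) libraries. All 30 intervals include 0.

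Ccl2 and Ccl7 encode ligands of CCR2, the receptor by which monocytes leave the bone marrow. Ccl2 was at 84.2 to 406 CPM in the 7 WT libraries, with a median of 222, and at 50.9 to 523 CPM in the 8 KO libraries, with a median of 256. The KO libraries thus held both the lowest value (KO female 4) and the highest (KO male 2), and the log2 difference was 0.36 (SE 0.42, edgeR adjusted p = 0.634), with 0.15 without KO male 2 and 0.60 without WT female 3. Ccl7 was at 55.7 to 352 CPM in WT, with a median of 181, and at 76.6 to 335 CPM in KO, with a median of 212. Its lowest library was WT male 2 and its highest WT female 3, and the log2 difference was 0.24 (SE 0.35, edgeR adjusted p = 0.710), with 0.06 without WT male 2 and 0.46 without WT female 3.

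The log2 difference of Ccl2 between the genotypes had opposite signs under the sex labels, though no test of this passed the threshold. In the male-labelled libraries it was at 227, 84.2, 141 and 178 CPM in WT and at 372, 523, 204 and 215 CPM in KO, so that 2 KO libraries exceeded every WT library and the other 2 lay just below WT male 1. In the female-labelled libraries it was at 245, 222 and 406 CPM in WT and at 373, 140, 298 and 50.9 CPM in KO, where 2 KO libraries lay below every WT library. The log2 difference was 1.06 (95% interval -0.06 to 2.18) under the male label and -0.43 (-1.63 to 0.76) under the female label. The difference of these was -1.49 (SE 0.76, edgeR unadjusted p = 0.0699, adjusted p = 1.00). That unadjusted p was the smallest among the chemokines described here, so Ccl2 is the extreme of the set. WT male 1 and KO male 1 are near-identical to WT female 1 and KO female 1. Xist and Ddx3y went against the label in WT male 1, KO male 1 and WT female 3. The contrast therefore cannot decide whether the genotype effect on Ccl2 depends on sex.

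Ccl3, Ccl4 and Ccl5 encode CC chemokines that draw macrophages and T cells. Ccl3 was at 9.02 to 69.7 CPM in WT, with a median of 34.0, and at 25.3 to 254 CPM in KO, with a median of 50.2. WT male 2, 3 and 4 were the 3 lowest libraries at 9.02, 12.8 and 14.8 CPM, and KO female 4 alone lay above 100 CPM. Ccl3 differed by a log2 value of 0.81 (SE 0.46, edgeR adjusted p = 0.296), and it was 0.44 without KO female 4 and 1.36 without WT male 1. Of the stretches of 50 bases in the Ccl3 transcript, 24.5% also occur in Gm53692 on the opposite strand. Part of its reads may be ambiguous if the libraries did not keep strand, which was not tested.

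Ccl4 was at 5.71 to 53.0 CPM in WT, with a median of 27.96, and at 11.6 to 49.2 CPM in KO, with a median of 29.2. The same 3 libraries, WT male 2, 3 and 4, were the lowest at 7.66, 8.82 and 5.71 CPM, and the other libraries of both genotypes intermixed. Ccl4 differed by a log2 value of 0.22 (SE 0.43, edgeR adjusted p = 0.793) and was 0.059 without WT male 4 and 0.85 without WT male 1. Ccl5 was at 1.29 to 14.5 CPM in WT, with a median of 4.09, and at 1.78 to 37.1 CPM in KO, with a median of 8.53. Apart from KO female 4, the KO libraries lay between 1.78 and 14.1 CPM, within the WT range. Ccl5 differed by a log2 value of 0.35 (SE 0.60, edgeR adjusted p = 0.755) and was -0.04 without KO female 4 and 0.81 without WT male 1.

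Ccl6 and Ccl9 encode ligands of CCR1 and are made by myeloid cells of the mouse. Ccl6 was at 19.2 to 147 CPM in WT, with a median of 82.4, and at 82.6 to 240 CPM in KO, with a median of 97.4. All 8 KO libraries lay above the WT median, and KO male 3 and KO male 4 exceeded every WT library. Ccl6 thus had a log2 difference of 0.75 (SE 0.36, edgeR unadjusted p = 0.0556, adjusted p = 0.222). Ccl9 was at 78.1 to 198 CPM in WT, with a median of 173, and at 128 to 367 CPM in KO, with a median of 216. Here 5 KO libraries exceeded every WT library, while KO male 1, KO female 1 and KO female 4 lay at 128 to 138 CPM. For Ccl9 the log2 difference was 0.49 (SE 0.26, edgeR adjusted p = 0.256). Of the 50-base stretches of the Ccl9 transcript, 2.63% also occur in 931 other genes.

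Cxcl1 and Cxcl2 encode ligands of CXCR2, the receptor that draws neutrophils. Cxcl1 was at 15.5 to 137 CPM in WT, with a median of 93.3, and at 10.4 to 82.0 CPM in KO, with a median of 38.5. All 8 KO libraries lay below 5 of the 7 WT libraries, and the other WT libraries, WT male 3 and WT male 4, lay at 54.0 and 15.5 CPM. For Cxcl1 the log2 difference was -0.89 (SE 0.43, edgeR unadjusted p = 0.0556, adjusted p = 0.222), the lowest of the 10 genes. Under the female label, the WT libraries were at 96.9, 83.9 and 95.5 CPM and the KO libraries at 36.7, 36.2, 10.4 and 74.0 CPM, with no overlap. Over all genes tested, 8.2% had every female-labelled KO library below every female-labelled WT library, and the log2 difference of Cxcl1 there was -1.23 (SE 0.64, edgeR adjusted p = 0.384). Under the male label the Cxcl1 ranges overlapped, at 15.5 to 137 CPM in WT and 27.7 to 82.0 CPM in KO.

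Cxcl2 was at 12.7 to 151 CPM in WT, with a median of 60.4, and at 11.8 to 233 CPM in KO, with a median of 53.8. The near-identical libraries WT male 1 and WT female 1 were the highest WT libraries at 140 and 151 CPM. For Cxcl2 the log2 difference was -0.06 (SE 0.56, edgeR adjusted p = 0.962), and it was 0.67 without WT male 1 and -0.39 without KO female 4. Cxcl2 and its neighbor Cxcl3 share 5.74% of the 50-base stretches of the Cxcl2 transcript. Whether any reads were left unassigned for this reason was not tested.

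Cxcl10 encodes an interferon-induced ligand of CXCR3 on T cells. It was at 0.309 to 2.90 CPM in WT, with a median of 0.534, and at 0.240 to 10.9 CPM in KO, with a median of 0.522. All but 3 of the 15 libraries lay below 1 CPM, and the 3 others were WT female 3 at 2.90, KO male 4 at 1.87 and KO female 4 at 10.9 CPM. For Cxcl10 the log2 difference was 1.01 (SE 0.77, edgeR adjusted p = 0.442), and it was -0.20 without KO female 4 and 1.49 without WT female 3. Of the 50-base stretches of the Cxcl10 transcript, 7.98% also occur in Art3 on the opposite strand.

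Within either sex label, 0 of the 10 genes passed the test, with 0 at an unadjusted p under 0.05, where 8.62% of all genes passed the latter under the male label and 14.6% under the female label. Between the labels, the difference of the genotype effect was called for 0 of the 10 by edgeR and for 0 of the 9 with an adjusted p in DESeq2 (0.00608% of all genes), and 0 reached an unadjusted p under 0.05 (1.41% of all genes). The WT and KO ranges did not overlap for 0 of the 10 under the male label (4.36% of all genes) and for 1, Cxcl1, under the female label (14.5%).

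The sex label itself was also tested. In the same model, with the choice made after the values had been seen, it gave 0 of 10 calls by edgeR (0.0233% of all genes tested) and 0 of 9 by DESeq2 (0.137%), which gave no adjusted p for Cxcl10. At an unadjusted p under 0.05, Ccl3 and Cxcl10 passed, against 5.45% of all genes. Ccl3 was at 9.02 to 64.5 CPM in the 8 male-labelled and 34.0 to 254 CPM in the 7 female-labelled libraries. The log2 difference of female over male labels was 1.28 for Ccl3 (95% interval 0.31 to 2.26, edgeR adjusted p = 0.880) and 1.66 for Cxcl10 (0.03 to 3.30, edgeR adjusted p = 0.880). Without KO female 4 it was 0.84 for Ccl3 and 0.26 for Cxcl10 (edgeR unadjusted p = 0.697). In the 12 libraries whose Xist and Ddx3y went with the label, it was 1.81 for Ccl3 (SE 0.42, edgeR adjusted p = 0.579) and 1.58 for Ccl4 (SE 0.34, edgeR adjusted p = 0.375), and for Cxcl10 it was 1.17 (SE 0.97, edgeR adjusted p = 0.869), with 0 of 10 called, where 0.0432% of all genes were. There Ccl3, Ccl4, Ccl5 and Cxcl2 had an unadjusted p under 0.05, against 6.1% of all genes. Ccl2 (0.09) and Cxcl1 (-0.04) had log2 differences between the labels near 0 over all libraries.

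The 10 genes did not share 1 pattern over the libraries. Likeness was measured as the mean absolute difference of rank among the 15 libraries, without a test, and near-identical libraries and depth are shared by all genes. Among the 10, the closest pairs were Ccl3 with Ccl4 (1.73 ranks) and Ccl2 with Ccl7 (1.87 ranks), and Ccl6 and Cxcl1 were the farthest apart (6 ranks). Ccl4 with Cxcl2 (2.27 ranks) and Ccl3 with Ccl5 (2.40 ranks) came next, whereas the neighbors Cxcl1 and Cxcl2 were at 3.47 ranks and Ccl6 and Ccl9 at 3.73 ranks. KO female 4 was lowest for Ccl2 and second lowest for Ccl7 but highest for Ccl3, Ccl5, Cxcl2 and Cxcl10, and WT male 2 was lowest for Ccl7, Ccl3 and Ccl6 but highest for Cxcl1. In KO female 4 the CCR2 ligands made 11.97% of the summed level of the 10 genes, against 43.5% for the median KO library and 42.3% for the median WT library.

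**Figure D3:**
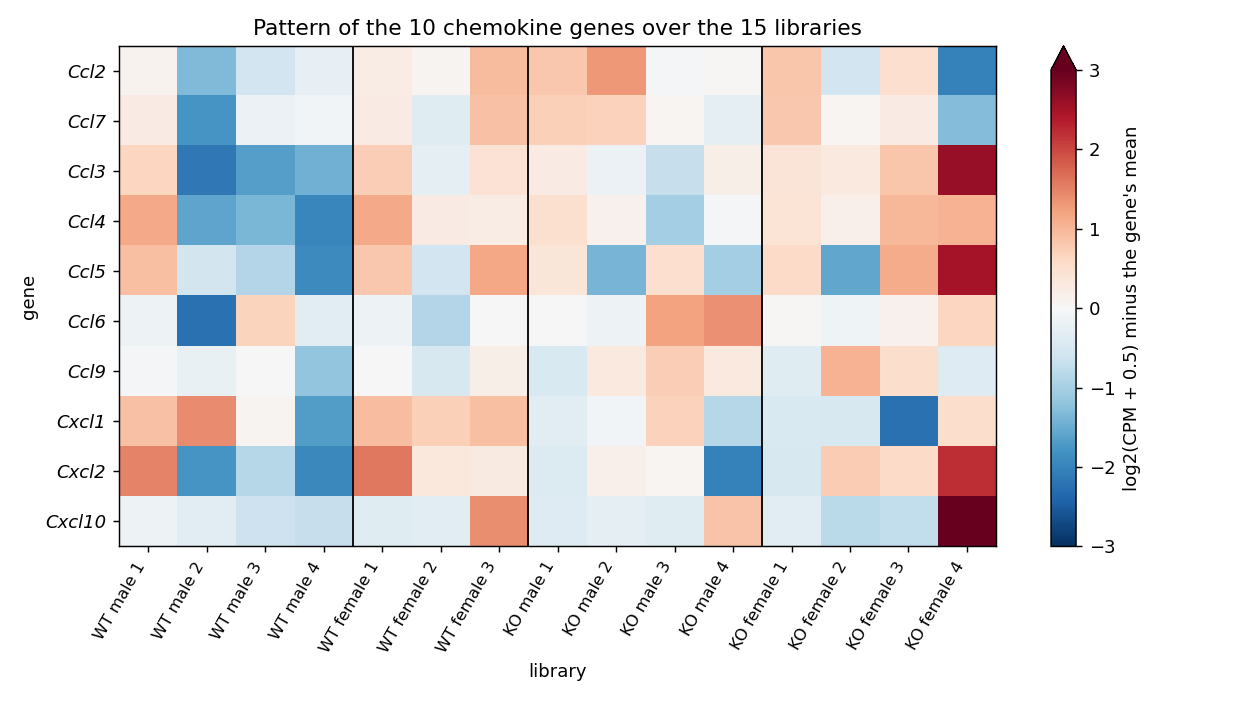
Log2(CPM + 0.5) minus the mean of each gene, in 15 libraries (columns, grouped by genotype and sex label) and 10 genes (rows), with red above and blue below the mean and colors capped at 3. Ccl2 and Ccl7 are blue and Ccl3, Ccl5, Cxcl2 and Cxcl10 deep red in KO female 4, and Ccl3, Ccl4 and Cxcl2 are blue in WT male 2, 3 and 4.

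Of the 13200 genes tested with a mean of at least 1 CPM, the 1 with the order of libraries closest to that of Ccl4 was Tnf, which encodes tumor necrosis factor (1.33 ranks). Tnf was at 14.5 to 87.6 CPM in WT, with a median of 51.3, and at 31.7 to 78.2 CPM in KO, with a median of 51.1, and its lowest library was WT male 2. Rpl10a-ps1 came next at 1.60 ranks from Ccl4. Tied at 1.73 ranks were Maob, Mtmr14, Oxa1l, Tmem82, Ccl3, Cd83 and Xist. Cd83 is a marker of activated antigen-presenting cells, and Xist marks the libraries by sex. Of Cxcl2, the closest 4 genes, tied at 1.60 ranks, were Fads6, Gm12481, a gene without a symbol and Tnip3, an inhibitor of NF-κB signaling. Of Cxcl1, the closest genes were Gm5617 and Rnf170 at 1.47 ranks. Dexi, H1f10, Tmem203 and Zc3h12a, an RNase that degrades cytokine transcripts, were tied at 1.60 ranks. Sparcl1 was as close to Ccl2 as Ccl7 was (1.87 ranks), and Hpf1 as close to Ccl7 as Ccl2 was. Of Ccl3 the closest gene was Tmem141 (1.33 ranks) and of Ccl5 Mmp27 (1.87 ranks). Of Cxcl10 the closest were 4930481A15Rik and Wdr66 at 2.13 ranks, with Nfkb1 and Sez6l2 tied at 2.27 ranks. Ccl6 had 4 genes tied at 1.47 ranks, among them Galnt7, and Gins1 lay at 1.60 ranks from Ccl9.

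**Figure D4:**
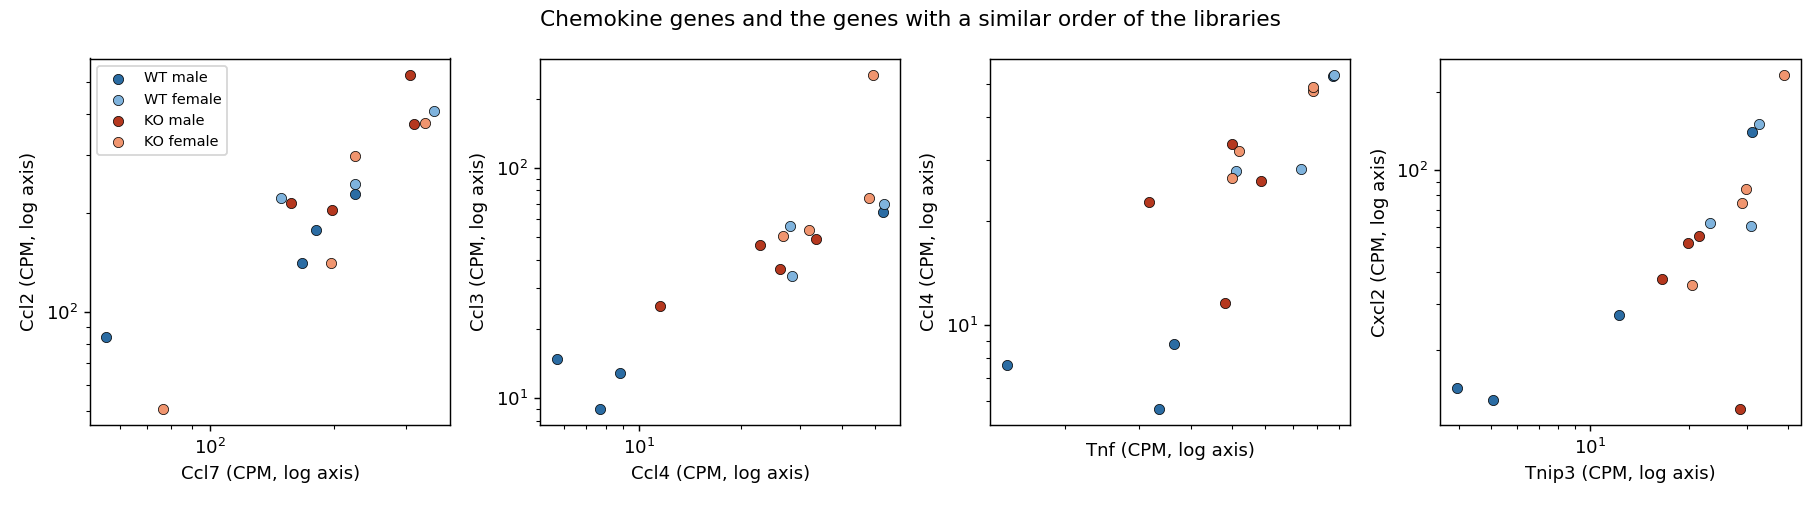
Level of 2 genes against each other in CPM on log axes, with 1 point per library colored by genotype and sex label, for Ccl2 against Ccl7, Ccl3 against Ccl4, Ccl4 against Tnf and Cxcl2 against Tnip3. The genotypes intermix in all 4 panels, and KO male 4 departs from the others in the last, with 28.7 CPM of Tnip3 and 11.8 CPM of Cxcl2.

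The genes that receive, induce and restrain these chemokines were described in the same fit. Of 24 chemokine receptors listed, 11 were tested and 9 had a positive log2 difference, against 8316 of the 17204 genes tested. By edgeR 1 was called higher in KO and 0 lower, against 0.546% and 0.75% of all genes. At an unadjusted p under 0.05, edgeR gave 5 higher and 0 lower, against 10.6% and 13%. DESeq2 called 2 higher, against 2.9%. The receptor called by edgeR was Ccr1, the receptor of CCL6 and CCL9. It was at 0.790 to 6.13 CPM in WT, with a median of 1.66, and at 3.10 to 42.4 CPM in KO, with a median of 17.0. Its ranges overlapped because WT male 3 and WT male 4, at 6.13 and 3.35 CPM, lay above KO male 4 at 3.10 CPM. Its log2 difference was 2.96 (SE 0.58, edgeR adjusted p = 0.0352), but no receptor was called in 8 of the 15 fits that each left out 1 library, with 1 of each near-identical pair kept, in the 12 libraries whose Xist and Ddx3y went with the label, or under either sex label alone. With 1 of each pair kept, the log2 difference of Ccr1 was 2.93 (edgeR adjusted p = 0.0771) or 2.91 (edgeR adjusted p = 0.102). Ccr2, the receptor of CCL2 and CCL7, was at 0.553 CPM or less in every library but KO male 2, the library with the highest Ccl2, where it was at 20.3 CPM.

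Of 28 other chemokine ligands, 18 were tested and 0 were called by edgeR in either direction, with 3 lower at an unadjusted p under 0.05, against 13% of all genes. DESeq2 called those 3, Cx3cl1, Ccl24 and Ccl28, lower in KO, against 3.47% of all genes. Cx3cl1, which encodes fractalkine, was at 42.7 to 114 CPM in WT and at 24.8 to 64.3 CPM in KO (log2 difference -1.11, SE 0.26, edgeR adjusted p = 0.0513). Of 20 inducing cytokines and receptors, 17 were tested and 0 were called by edgeR or DESeq2, with 2 lower (Il1rap and Ifngr1) at an unadjusted p under 0.05, also against 13%. The log2 difference of Tnf was 0.02 (SE 0.29).

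Of 22 genes of the NF-κB pathway, 0 were called by edgeR, while 5 were higher and 1 lower at an unadjusted p under 0.05, against 10.6% and 13% of all genes, and DESeq2 called 1, Traf1, higher (2.9%). Of 15 regulators of the interferon response, 0 were called by edgeR, with 2 higher and 4 lower at an unadjusted p under 0.05, against the same shares. DESeq2 called Irf8 higher and Irf3 lower, against 2.9% and 3.47% of all genes. Of 12 regulators of mRNA decay, edgeR called 1 higher in KO and 0 lower, against 0.546% and 0.75% of all genes. At an unadjusted p under 0.05, 3 were higher and 1 lower, against 10.6% and 13%. DESeq2 called 2 higher and 1 lower, against 2.9% and 3.47%. The gene called by edgeR was Hnrnpd, which encodes AUF1, a protein that binds AU-rich transcripts. It was at 59.2 to 77.1 CPM in WT and at 78.5 to 97.4 CPM in KO (log2 difference 0.35, SE 0.08, edgeR adjusted p = 0.0398). Its ranges did not overlap, as in 1.13% of all genes tested. No gene of this list was called higher in 13 of the 15 fits that each left out 1 library, with 1 of each near-identical pair kept, in the 12 libraries or under either sex label alone. Zfp36, which encodes tristetraprolin, was at 79.8 to 613 CPM in WT and at 53.1 to 221 CPM in KO (log2 difference -1.31, SE 0.44, edgeR adjusted p = 0.106), and DESeq2 called it lower.

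**Figure D5:**
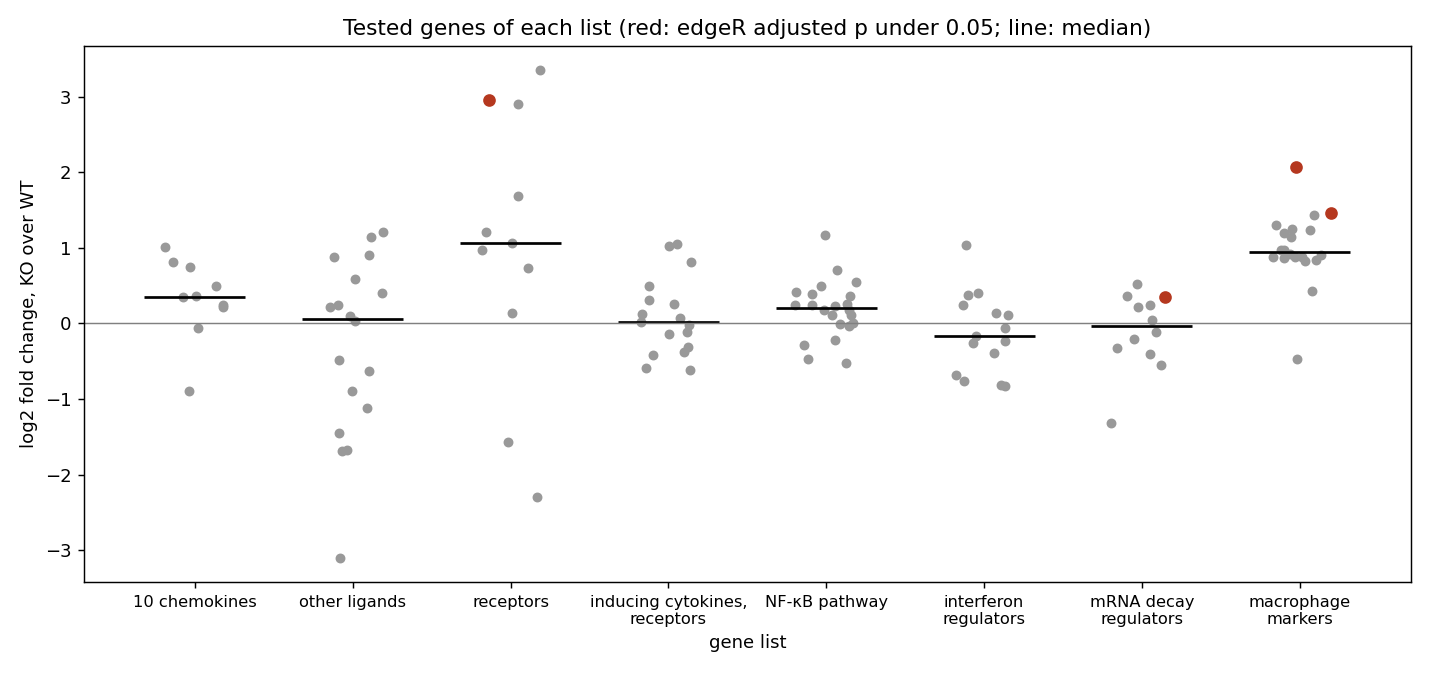
Log2 fold change of KO over WT for each tested gene of 8 lists, with 1 point per gene (scattered sideways for clarity), a line at the median of the list, and red points for an edgeR adjusted p under 0.05. The red points are Ccr1, Hnrnpd, Cd68 and Ctss, and none is among the 10 chemokines, whose median is 0.35.

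Macrophage markers were present in these cultures. All 20 were tested, and 19 had a positive log2 difference, against 8316 of the 17204 genes tested. The median of the 20 was 0.94. The 2 called higher in KO by edgeR were Cd68 and Ctss, against 0.546% of all genes, while DESeq2 called 11, against 2.9%. At an unadjusted p under 0.05, edgeR gave 17 higher and 0 lower, against 10.6% and 13%. By edgeR 0 were called with 1 of each near-identical pair kept, in the 12 libraries, under either sex label alone and in 12 of the 15 fits that each left out 1 library. Their summed level was 1646 to 11062 CPM in WT, with a median of 9815, lowest in WT male 2. In KO it was 8077 to 27826 CPM, with a median of 19092, highest in KO female 4. The ranges overlapped through the near-identical KO male 1 and KO female 1, at 8077 and 8837 CPM. Every other KO library lay above the WT range. Ptprc, which encodes the CD45 used for depletion, was at 27.9 to 179 CPM in WT and 114 to 370 CPM in KO, and Csf1r at 116 to 717 CPM and 426 to 1610 CPM. Summed markers of neutrophils were at 9.05 to 38.7 CPM in WT and 3.51 to 83.2 CPM in KO, and those of lymphoid and erythroid cells at no more than 2.45 and 0.576 CPM in any library. Endothelial markers summed to 9.60 to 20.4 CPM in WT and 13.4 to 117 CPM in KO. Stromal markers were present in every library, with a summed level of 17403 to 31339 CPM in WT and a median of 24537. In KO it was 6296 to 40009 CPM with a median of 13919, lowest in KO female 4 and highest in KO male 3. All 14 were tested, and 10 had a negative log2 difference, against 8888 of the 17204 genes tested. By edgeR 0 were called, with 1 higher and 4 lower at an unadjusted p under 0.05, against 10.6% and 13%. DESeq2 called 2 lower, against 3.47%. The part of macrophage RNA in the levels of the 10 chemokines was not tested.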

How the data were processed

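The deposited values were whole-number counts per gene, not normalized, in 15 libraries. According to the methods and the submitters' processing notes, the authors amplified cDNA from 1 ng of RNA, filtered paired reads of 150 nt with fastp 0.23.1, mapped them with STAR 2.7.9a to GRCm39 with GENCODE M31, and counted them by strand with featureCounts of Subread 2.0.1. The protocol in the labels does not say whether the libraries kept strand. Groups came from the sample titles, and 0 columns were left without a sample.

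CPM was computed with library sizes scaled by TMM. The main test was that of edgeR 4.0.16 in R 4.3.3 (filterByExpr, quasi-likelihood, sex label and genotype as terms, Benjamini-Hochberg adjustment over 17204 genes, threshold 0.05). Libraries varied with a biological coefficient of variation of 0.482. The effect under each sex label and their difference were fitted with 1 term per group. DESeq2 1.42.0 and limma 3.58.1 (voom with quality weights) were alternatives, as were other scalings, filters and sets of libraries. Text handling used Python 3.11.15 and pandas 2.3.3. Promoters were read from GRCm39 at the GENCODE M39 canonical start, and shared stretches were exact matches of 50 bases.

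The 10 genes and all lists were chosen with earlier results of these data known. The genes named are the 10, those of each list past the threshold or otherwise with the smallest p, genes with the closest order of libraries, and Slc6a6. Ccr2, Tnf, Zfp36, Ptprc, Csf1r and the test of the sex label were added after their values were seen. On simulated counts for 17204 genes in this comparison, with 200 changed 4-fold, edgeR recovered 78.5% and called 7 unchanged genes, and DESeq2 recovered 84.5% and called 43 unchanged genes. The differences of the 10 chemokines were smaller than 4-fold, and near-identical pairs were not simulated. These shares therefore do not give the power of the test for the 10 genes.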

Additional observations from a re-analysis of the deposited data

Results flagged for a closer look

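Among 30 sets of libraries (10 genes in the 3 groups of 4 libraries), 2 held a library far from the other 3, and chance would give about 1.5. Both concerned Cxcl10. In the male-labelled KO libraries, KO male 4 was at 1.87 CPM and the others at 0.503 to 0.574 CPM, so that its gap to the nearest was 0.919 of the whole range on the log2(CPM + 0.5) scale. In the female-labelled KO libraries, KO female 4 was at 10.9 CPM and the others at 0.240 to 0.524 CPM, and the gap was 0.881 of the whole range on that scale. Both exceed Dixon's 95% critical value for 4 libraries.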

How the results depend on the processing

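None of the 10 chemokines was called in either direction under any of the 13 alternatives or the 15 fits that left out 1 library (Cxcl10 had no adjusted p with DESeq2 or the stricter filter), and 0 were called between the sex labels under the added alternatives. The same held for the difference between sex labels under the alternatives that allowed it. Directions changed as follows, with the cause not tested. Within the female-labelled libraries alone, Ccl2 was at -0.43, Ccl7 at -0.21 and Cxcl2 at 0.27. With voom, Ccl5 was at -0.059 and Cxcl10 at -0.17. Cxcl2 was at 0.13 without the sex term, at 0.65 and 0.22 with the female-labelled or the male-labelled library of each near-identical pair kept, and at 0.63 in the 12 libraries. Leaving out 1 library at a time, Ccl5 ranged from -0.045 (without KO female 4) to 0.81 (without WT male 1), Cxcl2 from -0.39 (without KO female 4) to 0.67 (without WT male 1), and Cxcl10 from -0.20 (without KO female 4) to 1.49 (without WT female 3).

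Replicate numbers are shared between genotypes. The deviations of same-numbered libraries correlated at 0.28, 0.22, 0.62 and 0.19 under the male label, each best with its own number, and at 0.28, 0.07 and -0.04 under the female label, so not every pair exceeded 0.1 and the numbers were not taken as pairs. With the number as a replicate block, Ccl5 was at -0.055 and Cxcl10 at -0.11, no chemokine was called, and 0 receptors and 0 macrophage markers were called higher. Ccl6 was at 0.79 in that fit (edgeR adjusted p = 0.118). It was higher in KO in 7 of the 7 same-numbered pairs, Ccl5 and Cxcl1 in 2, and each other chemokine in 4 or 5. The pairs numbered 1 held the near-identical libraries, and the share over all genes was not counted.

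Among other lists, the number of ligands called lower was 3 with DESeq2, 1 each with voom, upper-quartile scaling, the stricter filter and no sex term, and 0 to 3 when 1 library was left out. Receptors called higher numbered 2 with DESeq2, 0 under either sex label alone, with 13 or 12 libraries, and 0 to 1 with 1 library left out. DESeq2 and voom each called 1 NF-κB gene higher, and 0 to 1 were called lower with 1 library left out. Interferon regulators gave 1 higher and 1 lower with DESeq2, 2 lower with voom and 0 to 2 lower with 1 library left out. Regulators of mRNA decay gave 2 higher with DESeq2, voom or no sex term, 1 lower with DESeq2 or voom, 0 higher without the filter, under either sex label alone and with 13 or 12 libraries, and 0 to 2 higher with 1 library left out. Macrophage markers, added after seeing the data, gave 11 higher with DESeq2, 10 with voom, 1 without the sex term, 0 without the filter, under either sex label alone and with 13 or 12 libraries, and 0 to 4 with 1 library left out. In the 7 shallower female-labelled libraries, Cxcl10 had as few as 4 counts (KO female 3). The effect of depth on its precision was not tested.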
